A study of Danio rerio with 6 samples.

Results

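The 8 genes described here belong to insulin and insulin-like growth factor (IGF) signalling: the receptor substrate irs2a, the insulin receptors insra and insrb, the IGF1 receptors igf1ra and igf1rb, and the secreted IGF binding proteins igfbp1a, igfbp5a and igfbp5b. They were taken by symbol, from 10 listed symbols, out of 15292 genes in the deposited table. irs1 and irs2b, the other listed symbols, were not analysed here. The group was chosen by pathway and selected on the measured genotype comparison, in which irs2a and igfbp5a were among the larger differences. Its genotype differences are therefore given as a description, without a test.

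The samples were kidney marrows of adult zebrafish, 3 homozygous for a mutation of grna (grna-/-) and 3 grna+/+ siblings labelled wild type, with 1 fish per library. Which part of grna is altered, and the age and sex of the fish, are not given in the sources used here. Kidney marrow is the blood-forming tissue of adult fish, and the suspension was strained but not sorted, so that it holds blood cells of all lineages beside kidney, vessel and stromal cells. Messenger RNA was sequenced to 11080875 to 14075134 counted reads per library. The values are TPM, a unit of transcript abundance in which reads are corrected for gene length and every library has an equal sum.

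Insulin and the IGFs bind receptor tyrosine kinases on the cell surface. The active receptor phosphorylates substrate proteins of the IRS family, which recruit PI3K and thereby switch on AKT and mTOR, while AKT holds FOXO transcription factors out of the nucleus. IGF binding proteins are secreted, hold IGFs in the extracellular space and can lower or raise their access to the receptor. In mammals IRS2 and IGFBP1 are genes that FOXO factors induce when insulin is low. Zebrafish keep duplicates of many of these genes, marked a and b.

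grna itself was at 65.2, 73.98 and 71.92 TPM in grna-/- marrows, against 151.2, 134.7 and 145.6 TPM in grna+/+ marrows (limma log2 fold change -1.02, SE 0.129, adjusted p = 0.0186). The labels give the genotype and no direction of transcript level. The adjusted p ran from 0.000508 to 0.093 over 16 alternative settings, passing 0.05 in 12. Among 10750 genes tested across the table, 71 were higher and 53 lower in grna-/- at a limma adjusted p below 0.05, or 149 and 122 with the replicate numbers of the titles as a block. grna+/+ replicate 2 stood apart from the other libraries in several of the results below, and some values that rest on it are given without it too. In bulk marrow, fewer cells of a type and less RNA per cell cannot be told apart.

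Of the 8 genes, 6 had a higher and 2 a lower fitted level in grna-/- marrows, with a median log2 fold change of 0.48 against 0.07 over all tested genes. The genotypes did not overlap for 4 genes, irs2a, insra, insrb and igfbp5a, all higher in grna-/-. Of all genes tested, 14% were higher in this way, 10.6% were lower and 24.6% did not overlap. In the fit across all genes 2 of the 8, irs2a and igfbp5a, passed the threshold, both as higher, where 1.15% of all tested genes passed, 0.66% as higher and 0.493% as lower. Under alternative settings irs2a passed in 7 of 16 and igfbp5a in 8 of 15. Since the choice of genes used this comparison, nothing is read from these counts. All 8 passed the filter of a mean of 1 TPM, igfbp5a through its grna-/- level.

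**Figure D1:**
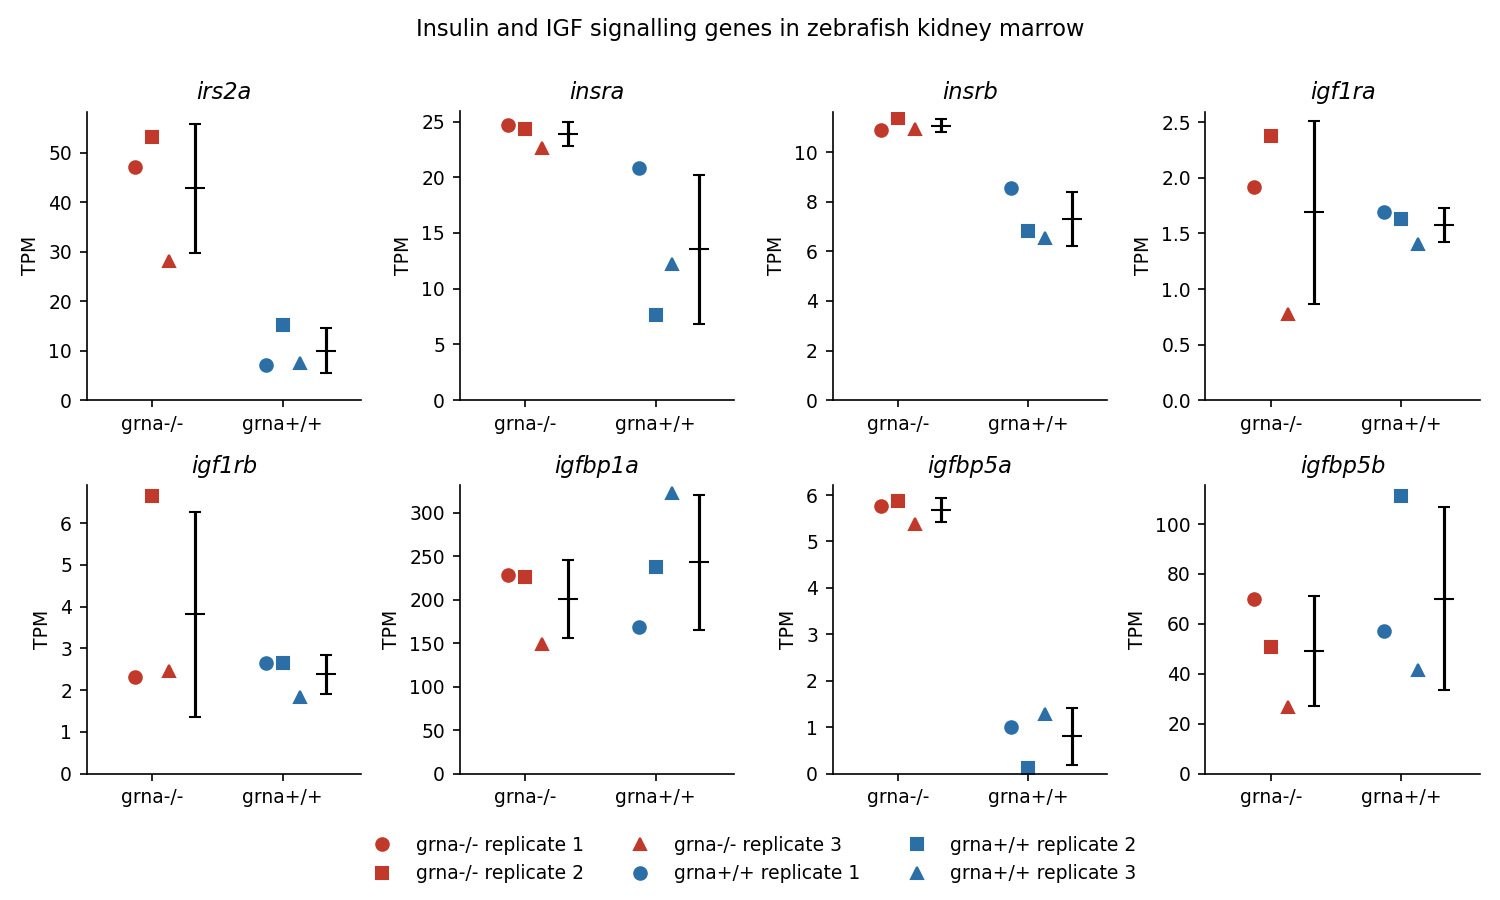
TPM of the 8 genes in each library, by genotype, with the mean and SD of 3 fish at the right of each group. Each panel has its own linear axis from 0. irs2a, insra, insrb and igfbp5a have all grna-/- points above all grna+/+ points, and the other 4 genes overlap.

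irs2a encodes an insulin receptor substrate, the docking protein between the receptors and PI3K. It was at 47.1, 53.19 and 28.22 TPM in grna-/- marrows, against 7.131, 15.22 and 7.574 TPM in grna+/+ marrows. The lowest grna-/- library, replicate 3, was still above the highest grna+/+ library, replicate 2. The means were 42.8 ± 13.02 TPM in grna-/- and 9.98 ± 4.55 TPM in grna+/+ (SD, n = 3 each), a 4.29-fold difference. On the log2(TPM + 1) scale the difference was 2.02 (SE 0.328), the 24th highest of all tested genes. The fold was 3.76 to 5.83 with any 1 library left out, and highest without grna+/+ replicate 2. These levels rest on 5014 reads in grna-/- and 1152 in grna+/+, as recovered from the steps of the TPM values.

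insra and insrb encode the duplicated insulin receptor. insra was at 24.67, 24.37 and 22.63 TPM in grna-/- marrows, against 20.8, 7.633 and 12.18 TPM in grna+/+ marrows. The grna-/- libraries lay close together, with a coefficient of variation of 4.62% against 49.4% in grna+/+, and grna+/+ replicate 1 came near them. The means were 23.9 ± 1.103 TPM in grna-/- and 13.5 ± 6.69 TPM in grna+/+, a 1.77-fold difference (log2 difference 0.88, SE 0.309). Leaving out grna+/+ replicate 2 gave 1.45-fold, and leaving out replicate 1 of that genotype gave 2.41-fold. insrb was at 10.89, 11.38 and 10.93 TPM in grna-/- marrows, against 8.553, 6.838 and 6.519 TPM in grna+/+ marrows. Its groups were also separate and the grna-/- libraries again the tighter, with a 1.51-fold difference of means (log2 difference 0.55, SE 0.176).

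Taken as a pair, the insulin receptors summed to 35.56, 35.75 and 33.56 TPM in grna-/- marrows, against 29.35, 14.47 and 18.7 TPM in grna+/+ marrows. insra supplied most of the sum in every library, 67.4% to 69.4% in grna-/- and 52.8% to 70.9% in grna+/+. The lowest share, in grna+/+ replicate 2, went with the lowest sum. The ratio of irs2a to the receptor sum was 1.33, 1.49 and 0.841 in grna-/- marrows, against 0.243, 1.05 and 0.405 in grna+/+ marrows. This ratio overlapped between the genotypes, since grna+/+ replicate 2 combined the highest irs2a of its group with the lowest insra.

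igf1ra and igf1rb encode the duplicated IGF1 receptor, which binds IGFs with higher affinity than insulin. igf1ra was at 1.916, 2.374 and 0.7777 TPM in grna-/- marrows, against 1.689, 1.632 and 1.401 TPM in grna+/+ marrows. The grna-/- values lay on both sides of the grna+/+ values (log2 difference 0.01, SE 0.287), and the sign of this difference changed under 6 of 15 alternative settings. igf1rb was at 2.323, 6.649 and 2.47 TPM in grna-/- marrows, against 2.662, 2.646 and 1.834 TPM in grna+/+ marrows. Its higher grna-/- mean came from replicate 2 alone (log2 difference 0.41, SE 0.344), and without that library the fold was 1.01. Both genes rest on few reads, 203 in grna-/- and 189 in grna+/+ for igf1ra, and 472 and 284 for igf1rb. In every library the insulin receptors together exceeded the IGF1 receptors together on this length-corrected scale, by 3.96 to 10.3 times in grna-/- and 3.38 to 6.75 times in grna+/+.

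**Figure D2:**
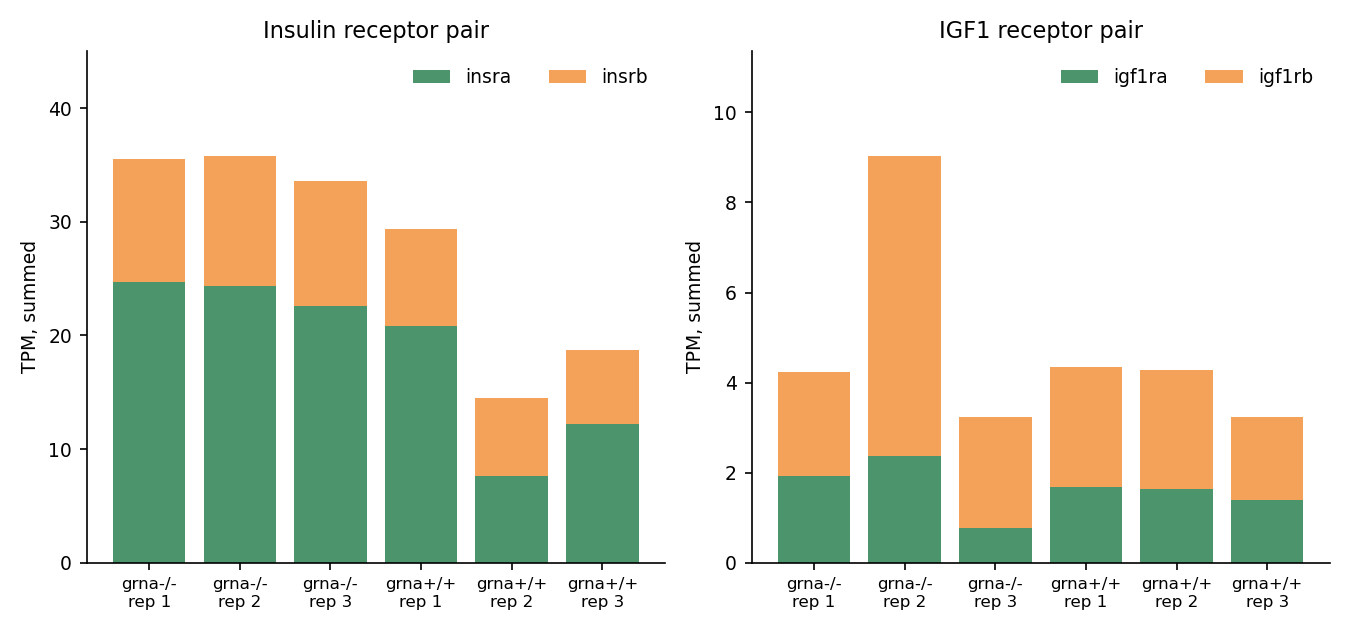
TPM of the insulin receptor genes (left) and the IGF1 receptor genes (right), stacked per library, grna-/- libraries before grna+/+ libraries. The insulin receptor sum is 33.56 to 35.75 TPM in grna-/- and 14.47 to 29.35 TPM in grna+/+, while the IGF1 receptor sum overlaps and is highest in grna-/- replicate 2 (9.02 TPM).

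igfbp5a and igfbp5b are duplicates of IGFBP5, a binding protein that in mammals is found in bone, muscle and connective tissue matrix. igfbp5a was at 5.758, 5.871 and 5.382 TPM in grna-/- marrows, against 1.012, 0.1141 and 1.295 TPM in grna+/+ marrows. The 3 grna-/- libraries were nearly alike, with a coefficient of variation of 4.52%, and the grna+/+ libraries were low and uneven (76.4%). The means were 5.67 ± 0.256 TPM in grna-/- and 0.807 ± 0.616 TPM in grna+/+, a 7.03-fold difference (log2 difference 1.95, SE 0.298). Leaving out grna+/+ replicate 2 gave a fold of 4.92, and leaving out replicate 3 of that genotype gave 10.1. The gene was read 96, 125 and 99 times in grna-/- and 20, 2 and 26 times in grna+/+. For the library with 2 reads, an exact Poisson interval of 95%, which covers counting error only, runs from 0.0138 to 0.412 TPM. The added 1 TPM compresses this difference, which was 3.06 on the log2 scale with 0.1 TPM added, with a larger SE of 0.671.

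igfbp5b was far more abundant and did not show this difference. It was at 70.16, 50.71 and 26.54 TPM in grna-/- marrows, against 57.31, 111.4 and 41.58 TPM in grna+/+ marrows. The groups overlapped (log2 difference -0.49, SE 0.424), and the highest value was that of grna+/+ replicate 2. Without that library the log2 difference was -0.10. igfbp5b exceeded igfbp5a by 12.2, 8.64 and 4.93 times in the grna-/- libraries, against 56.6, 976 and 32.1 times in the grna+/+ libraries, the highest of these resting on the 2 igfbp5a reads. In the RefSeq gene table each of the symbols is listed as a synonym of the other, so that which duplicate the authors' annotation calls igfbp5a cannot be settled from the sources used here.

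igfbp1a, a duplicate of IGFBP1, which the liver secretes in mammals and which rises there in fasting, was the most abundant of the 8 genes. It was at 228.5, 225.9 and 149.6 TPM in grna-/- marrows, against 168.2, 237.5 and 323.1 TPM in grna+/+ marrows. The groups overlapped, with a 0.829-fold ratio of means and a log2 difference of -0.25 (SE 0.259). Hepatocyte markers were low in the same libraries: 11 of 12 listed markers summed to 6.41 to 17.0 TPM in grna-/- and 19.3 to 51.2 TPM in grna+/+, and serpina1 was at 0 throughout. In each library igfbp1a was above the sum of these hepatocyte markers, a comparison of levels that does not tell which cells it came from. The 10 kidney tubule markers measured summed to 1664 to 3404 TPM in grna-/- and 1264 to 1880 TPM in grna+/+. Of the 10 stromal markers measured, the sums were 315 to 632 TPM in grna-/- and 756 to 893 TPM in grna+/+. This gap came from cxcl12a alone, since the other 9 summed to 76.8 to 156 TPM in grna-/- and 70.1 to 128 TPM in grna+/+. No stromal marker passed in limma. The part of hepatocytes, tubule cells or stromal cells in the levels of igfbp1a and igfbp5b was not tested.

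**Figure D3:**
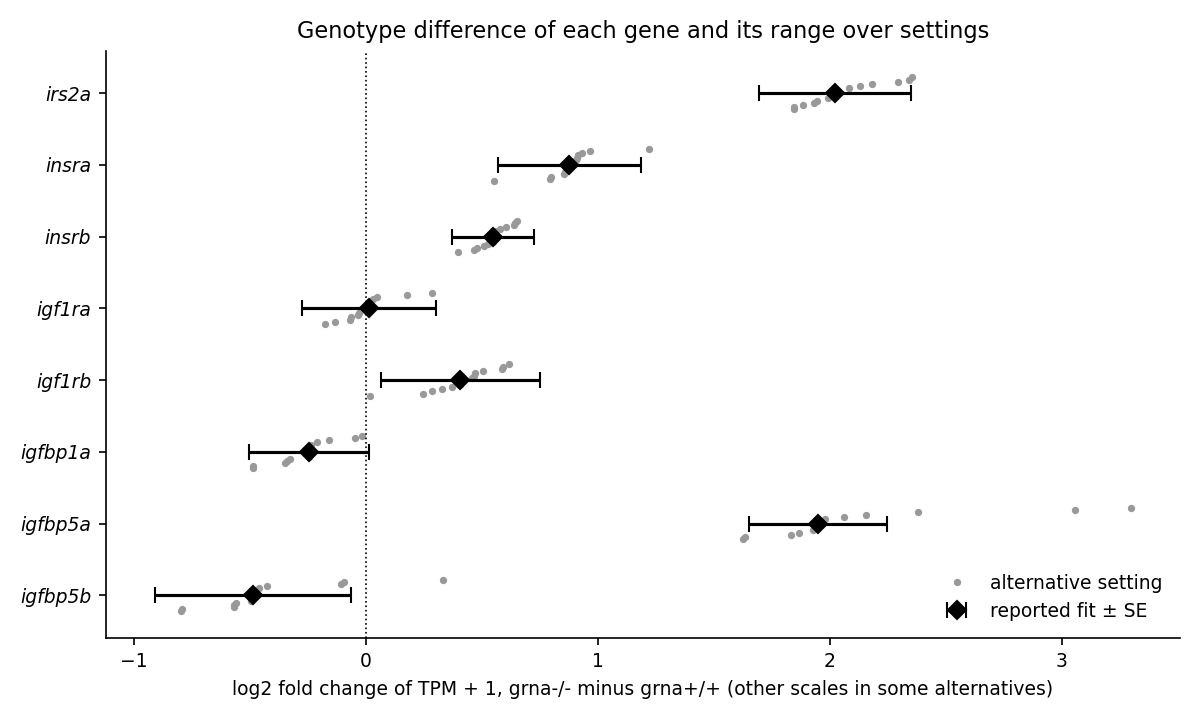
Log2 fold change of each gene, grna-/- minus grna+/+, from the fit across all genes (diamond, with its SE) and under 15 or 16 alternative settings (grey points). The points of igfbp5a spread widest, from 1.63 to 3.30, and those of igf1ra and igfbp5b lie on both sides of 0.

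In order of mean level in grna-/- marrows, igfbp1a came first, then igfbp5b (49.1 ± 21.9 TPM), irs2a, insra, insrb, igfbp5a, igf1rb and igf1ra (1.69 ± 0.822 TPM). In that order igfbp5b and irs2a overlapped, as did igfbp5a with igf1rb and igf1rb with igf1ra. In grna+/+ marrows the order was igfbp1a, igfbp5b, insra, irs2a, insrb, igf1rb, igf1ra and igfbp5a, and insra, irs2a and insrb overlapped in sequence. irs2a thus lay above insra in each grna-/- library, by the values given above, and above it in grna+/+ replicate 2 but below it in grna+/+ replicates 1 and 3.

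Erythroid markers were higher in the libraries in which irs2a, the insulin receptors and igfbp5a were higher. All 10 listed markers were measured, and 9 were tested, each with a fold change above 0. They summed to 81040, 93770 and 82370 TPM in grna-/- marrows, against 42610, 21400 and 50790 TPM in grna+/+ marrows, nearly all of it globin. Of the 9, alas2, ank1a, epb41b and nt5c2l1 rose in limma. In the marker lists of the other cell types, 2 podocyte markers and 1 thrombocyte marker fell and no other marker passed. Other list sums also separated the genotypes, as lower in grna-/-. These were podocyte (24.5 to 28.5 against 58.6 to 68.0 TPM), endothelium (157 to 218 against 219 to 298 TPM) and thrombocyte (159 to 202 against 237 to 588 TPM). The hepatocyte and stromal sums given above did so too, and the sums of the remaining lists overlapped. Within grna-/-, the erythroid sum was lowest in replicate 1, close to replicate 3, and igfbp5a and irs2a were lowest in replicate 3. Single markers differed in this order. ank1a, epb41b, gata1a, nt5c2l1 and hbaa1 were also lowest in replicate 3, and alas2, ba1l, slc4a1a and tspo in replicate 1. The Poisson intervals of igfbp5a overlapped there (4.664 to 7.031, 4.887 to 6.995 and 4.374 to 6.552 TPM), so its order was not resolved. Within grna+/+, igfbp5a was lowest in replicate 2 and highest in replicate 3, as was the erythroid sum, on 20, 2 and 26 igfbp5a reads, whereas irs2a was highest in replicate 2. There insra was lowest in replicate 2 and highest in replicate 1. insrb was highest in replicate 1 and lowest in replicate 3, where the erythroid sum was highest, though its Poisson intervals in replicates 2 and 3 overlapped. The part of erythroid cell number in these levels was not tested.

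**Figure D4:**
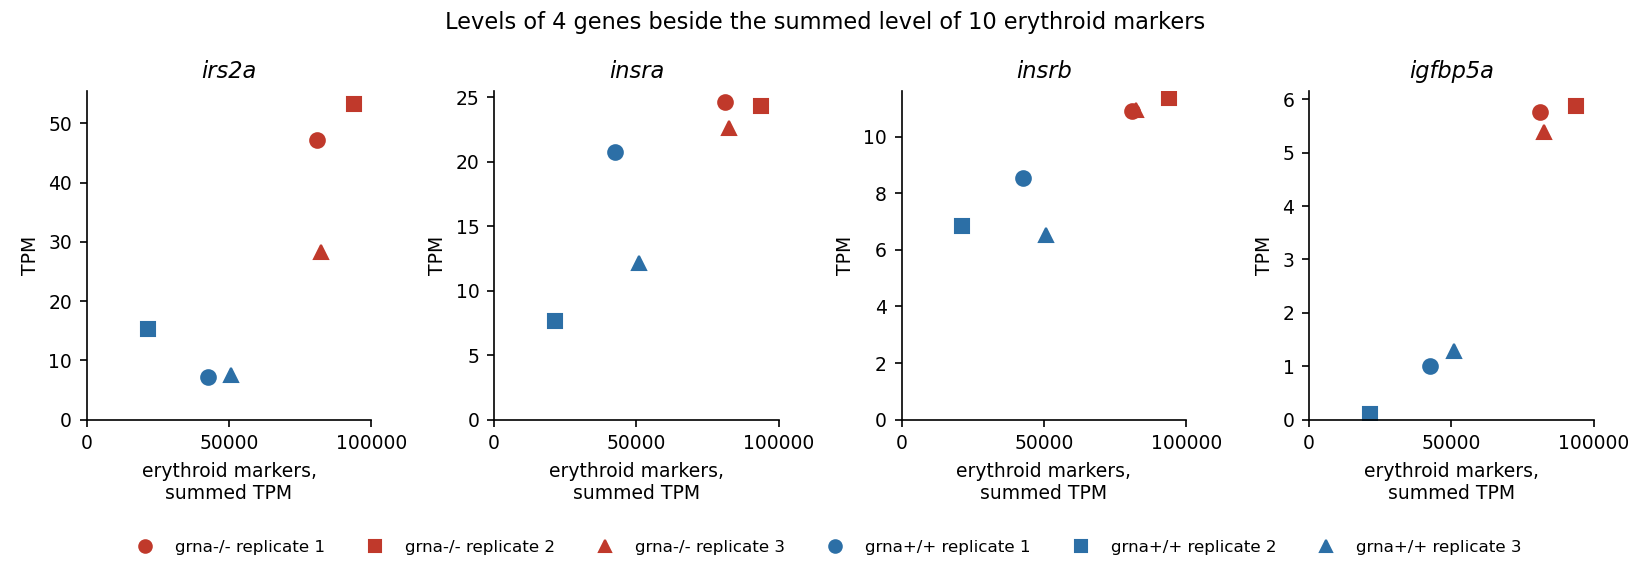
TPM of irs2a, insra, insrb and igfbp5a (vertical axes) against the summed TPM of 10 erythroid markers (horizontal axes), 1 point per library. The grna-/- points sit at 81040 to 93770 TPM of erythroid markers and the grna+/+ points at 21400 to 50790. Within grna+/+ igfbp5a has the order of the sum, on 2 reads in replicate 2, and irs2a is highest where the sum is lowest. Within grna-/- the sums of replicates 1 and 3 lie close together, and the Poisson intervals of igfbp5a overlap.

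The genes with the most similar profiles were ranked by Pearson r of log2(TPM + 1) over the 6 libraries, given as a description. Only tested genes with an assigned symbol entered, with clone and locus names left out, and the highest are given. For igfbp5a these were sept3 (r = 0.997), ank1a (0.997), epb41b (0.996), ccdc96 (0.996) and ftr67 (0.994). ank1a and epb41b encode proteins of the red cell membrane skeleton. After removal of the genotype means, r with these genes was 0.942 to 0.996. The largest deviation of igfbp5a from its genotype mean was in grna+/+ replicate 2, on 2 reads. For irs2a they were mfsd11 (r = 0.992), wnt2ba (0.991), the beta-adrenergic receptor gene adrb2b (0.991), the mitophagy receptor gene bnip3lb (0.989) and tal1 (0.983), a transcription factor of blood stem and erythroid cells. After removal of the genotype means r with these was 0.88 to 0.963. An r over 6 libraries in 2 groups holds the group difference, and these are the highest among the many genes ranked. The r without genotype means comes from the libraries on which the genes were picked, so it is no separate check. wnt2ba, adrb2b and ccdc96 were low in grna+/+ (means of 0.712, 0.901 and 0.872 TPM). They passed the filter of a mean of 1 TPM only through their grna-/- level. irs2a and igfbp5a themselves had an r of 0.80 over the 6 libraries and of -0.67 after the genotype means were removed. In grna-/- marrows both were highest in replicate 2 and lowest in replicate 3, though the Poisson intervals of igfbp5a overlapped there. In grna+/+ marrows replicate 2 held the highest irs2a and the lowest igfbp5a, on 2 reads.

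The rest of the pathway was described from a list of 133 other genes arranged by role, of which 96 were measured and 82 passed the filter. In limma 1 of the 82 fell and none rose, where 0.493% of all tested genes passed as lower and 0.66% as higher. At an unadjusted p below 0.05 there were 13, where 17.6% of all tested genes passed. The median log2 fold change was 0.01, against 0.07 over all tested genes, with 42 above and 40 below 0, and 24.4% did not overlap between genotypes, against 24.6% of all tested genes. With the replicate block 2 passed, enpp1 and socs3b, where 2.52% of all tested genes passed.

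The gene that fell was enpp1, an ectoenzyme that makes pyrophosphate and in mammals can bind and restrain the insulin receptor. It was at 22.53, 24.46 and 19.96 TPM in grna-/- marrows, against 41.54, 66.98 and 51.36 TPM in grna+/+ marrows. Its groups were separate, with a limma log2 fold change of -1.20 (SE 0.201, adjusted p = 0.0423). The adjusted p ran from 0.00111 to 0.155 over 16 alternative settings and passed 0.05 in 8, while the log2 fold change stayed between -1.36 and -1.02. Of the 6 libraries, grna+/+ replicate 1 was the one whose removal kept the call. The cytokine feedback gene socs3b, which also dampens IRS signalling in mammals, was at 62.03, 84.32 and 110.7 TPM in grna-/- marrows, against 144.6, 367.4 and 226.8 TPM in grna+/+ marrows. Its limma adjusted p was 0.0922, and 0.0212 with the replicate block, within a range of 0.00261 to 0.254 over the alternatives. Its log2 fold change was -1.45, and -1.11 without grna+/+ replicate 2 (adjusted p = 0.153). The most abundant gene of that group, the nutrient-stress sensor gene sesn1, had a mean of 284 ± 16.2 TPM in grna-/- marrows and 338 ± 37.7 TPM in grna+/+ marrows (limma adjusted p = 0.345). Its groups did not overlap, with grna-/- the lower, as for 10.6% of all tested genes.

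Ligand transcripts were low apart from igf2b. igf2b, which encodes an IGF2, was at 19.33, 14.97 and 10.25 TPM in grna-/- marrows, against 25.91, 35.78 and 20.29 TPM in grna+/+ marrows. The groups were narrowly separate and the difference did not pass in limma (log2 fold change -0.84, SE 0.277, adjusted p = 0.197), and the log2 fold change was -0.64 without grna+/+ replicate 2. igf1 was seen in 0, 1 and 1 reads in grna-/- and in 3, 0 and 5 reads in grna+/+, and ins, the insulin gene, in 3, 3 and 5 reads against 1, 1 and 2 reads. The ins values did not overlap, at 0.611 to 1.18 TPM in grna-/- and 0.22 to 0.432 TPM in grna+/+, but both genes lay below the filter and were not tested. Among the other binding proteins and their proteases 3 of 12 measured genes were tested and none passed, and the most abundant, igfbp7, was at 14.8 ± 5.20 TPM in grna-/- marrows and 15.8 ± 4.96 TPM in grna+/+ marrows.

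None of the 14 further receptors and adaptors, 10 PI3K and lipid phosphatase genes, 9 genes of the AKT group, 14 of the TSC and mTOR group and 13 of the MAPK branch passed in limma. Their median log2 fold changes lay between 0.01 and 0.09. The adaptor gene grb2b had 128 ± 9.64 TPM in grna-/- marrows and 142 ± 6.11 TPM in grna+/+ marrows. pik3r1, a regulatory subunit of PI3K that binds IRS proteins, had 213 ± 16.6 TPM in grna-/- marrows and 246 ± 31.1 TPM in grna+/+ marrows. akt2, the AKT kinase most tied to insulin action in mammals, had a mean of 51.9 ± 2.46 TPM in grna-/- marrows and 60.5 ± 5.97 TPM in grna+/+ marrows (limma adjusted p = 0.444). The translation repressor gene eif4ebp2, a target of mTOR, had 142 ± 3.68 TPM in grna-/- marrows and 172 ± 18.9 TPM in grna+/+ marrows (limma adjusted p = 0.327). The kinase gene mapk3 had 110 ± 10.03 TPM in grna-/- marrows and 130 ± 22.8 TPM in grna+/+ marrows (limma adjusted p = 0.486). akt2 and eif4ebp2 were lower in grna-/- without overlap, as were 10.6% of all tested genes, while grb2b, pik3r1 and mapk3 overlapped. Among the 4 FOXO genes tested none passed, with a median log2 fold change of 0.38, 3 above 0 and 1 below. Of the 4, 2 were higher without overlap, as were 14% of all tested genes. foxo1a was the one below 0, with overlapping groups (log2 fold change -0.52, SE 0.263, limma adjusted p = 0.339). foxo3b, the most abundant, was at 63.46, 58.58 and 58.62 TPM in grna-/- marrows, against 41.36, 39.51 and 42.85 TPM in grna+/+ marrows, with groups well apart and a limma adjusted p of 0.117. foxo3a was at 22.03, 19.58 and 21.29 TPM in grna-/- marrows, against 16.49, 8.076 and 10.9 TPM in grna+/+ marrows (log2 fold change 0.83, SE 0.245, limma adjusted p = 0.163). Without grna+/+ replicate 2 its log2 fold change was 0.61.

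**Figure D5:**
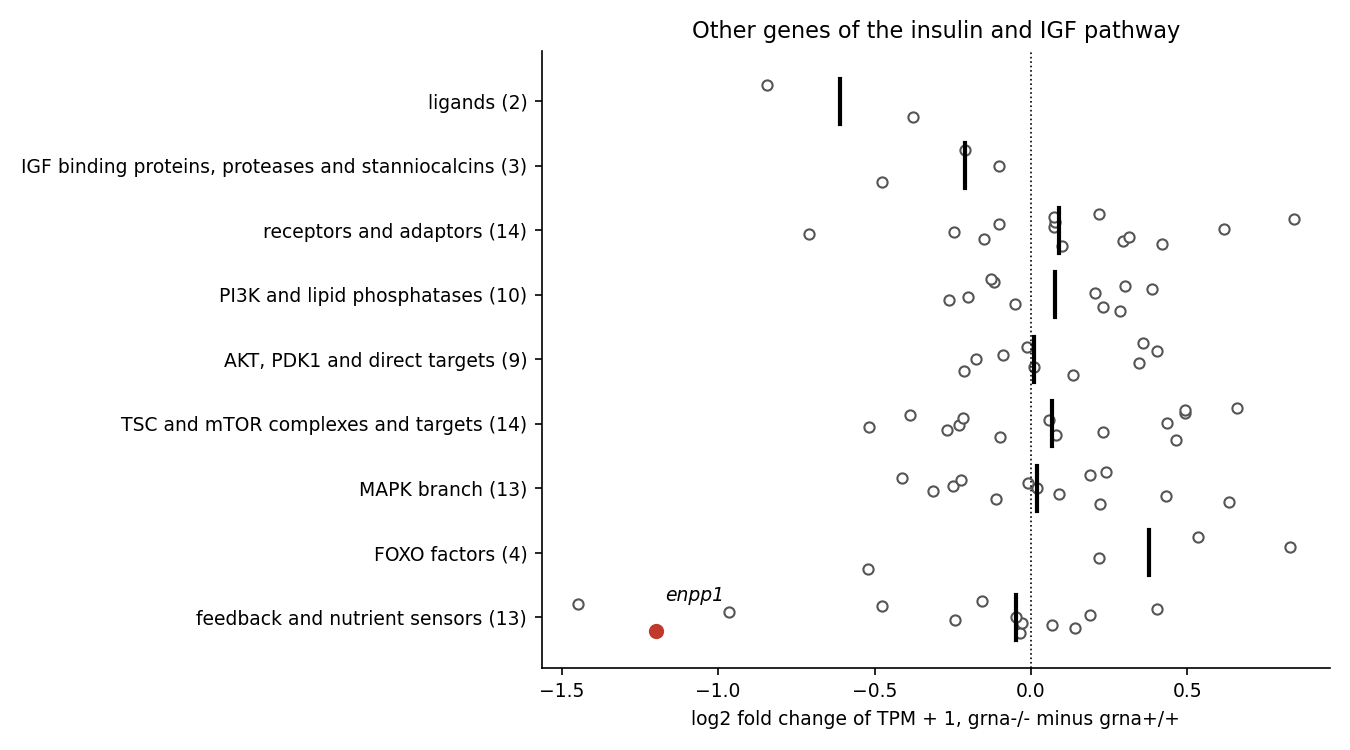
Log2 fold changes, grna-/- minus grna+/+, of the 82 other pathway genes tested, by role, with the number tested in brackets and a bar at the median. Open points did not pass in limma and the filled point, enpp1, did, and most points lie within 0.5 of 0.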

How the data were processed

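The authors deposited 1 table of TPM with 1 column per library, and TPM sums to the same total in each. The builds GRCz10 and danRer10 and the tools DESeq2 1.26.0, Subread and featureCounts are named in the submitters' processing notes. The tool behind the TPM and any use of strand are not given in the sources used here. A stranded kit was used on 50 ng of RNA and 75 bp were read from one end, per the labels' protocols. A row named Total, naming no gene, was left out of tests and read as counted reads.

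log2(TPM + 1) of 10750 genes with a mean of at least 1 TPM was fitted with limma 3.58.1 in R 4.3.3 on genotype, with trended variances, two-sided, and adjusted by Benjamini-Hochberg over all genes. Fold changes of low genes are understated. Whole reads were recovered from the ratios of TPM between libraries, for all 11875 genes above 0 in every library and for 0 of 400 genes whose values were moved by up to 0.1%. They sum to 99.27% to 99.30% of the Total row, and a whole factor shared by every library of a gene would stay hidden. The fit was tested on simulated data. Large changes were placed there only in genes well above the filter, so recovery of changes in low genes such as igfbp5a was not tested.

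Genes and lists were chosen with earlier results of these data known. Named pathway genes are those that passed and the most abundant of each role. socs3b, foxo3a and foxo1a were named after their values were seen, and the ligand genes igf1 and ins were named outside this rule too. Fish are separate, so p-values measure spread between fish. Same-numbered fish of the genotypes deviated together (r = 0.136, 0.153 and 0.237 across genes), against -0.222 to -0.006 for fish of unlike numbers. The numbers may pair them, though no label says what a number shares. Deviations were taken from the mean of 3 fish, so these r values depend on one another and cannot settle it. Symbols of all 8 genes were found in a RefSeq table of another assembly (GRCz12tu), used for names only.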

Additional observations from a re-analysis of the deposited data

How the results depend on the processing

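Counts of genes passing in limma moved with the processing. The numbers higher and lower were 23 and 21 without a filter, 45 and 29 at a mean of 5 TPM, 46 and 30 without a variance trend, 149 and 122 with the replicate block, 1656 and 791 with library weights, and 42 and 29 with voom on recovered reads, a setting chosen after seeing the data. With 1 library left out they were 10 to 112 and 5 to 92. Pathway genes passing were 0 without a filter, with median scaling and without a trend (0.313%, 0.893% and 0.707% of all genes). They were 2 with the replicate block (where 2.52% of all genes passed) and 18 of 82 with library weights (22.8% of all genes). With 1 library left out they were 0 to 4, where 0.148% to 1.9% of all genes passed. The 4 passed without grna+/+ replicate 1 (1.9% of all genes). The median log2 fold change of the pathway genes was -0.065 with median scaling, 0.11 with library weights and -0.065 to 0.083 with 1 library left out. Over the alternatives the log2 fold change, given as a description, was 1.85 to 2.36 for irs2a, 1.63 to 3.30 for igfbp5a, 0.55 to 1.22 for insra and 0.40 to 0.65 for insrb. The sign turned for igf1ra (-0.029 with 0.1 TPM added, -0.13 with quantile normalization, -0.066 with median scaling, -0.18 to 0.29 with 1 library left out), for igfbp5b, igfbp7, pik3r1 and mapk3 with library weights (0.33, 0.38, 0.014 and 0.055), and for igfbp7 with 1 library left out (-0.37 to 0.18). The cause was not tested. Among the 8 genes and the named pathway genes, the replicate block changed the call of socs3b alone. Other settings removed the calls of irs2a, igfbp5a and enpp1, as counted above. Library weights (22.8% of all genes) added calls of insra, insrb, foxo3a, foxo3b and socs3b. Leaving out grna+/+ replicate 1 (1.9% of all genes) added those of insra, foxo3a and socs3b. Few reads lie behind igfbp5a in grna+/+ and behind igf1 and ins.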
